A study of Homo sapiens with 2 samples.

Results

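The MCM genes were followed in A549, a cell line established from a human lung adenocarcinoma, with and without forced expression of ATOH8. They were taken by symbol (MCM2 to MCM10 and MCMBP), and all 10 had a value in both libraries, out of 18786 symbols that did. The vector library came from cells that stably carried a retroviral vector without insert, and the ATOH8 library from cells that stably carried a retrovirus with ATOH8, the gene of a transcription factor of the basic helix-loop-helix class. Both were grown in the same serum-supplemented medium. Which promoter drove the transgene, how long the cells had carried it and whether each culture was a pool or a clone is not given in the sources used here. Each group held 1 library, so every value below compares these 2 libraries and has no replicate error, and no test was run here.

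MCM2 to MCM7 encode the subunits of a ring-shaped helicase that is loaded onto replication origins in G1 phase, when origins are said to be licensed. In S phase the ring joins CDC45 and the GINS proteins to form the CMG helicase, which unwinds DNA at the fork. MCM8 and MCM9 encode related proteins that work together in homologous recombination. MCM10 and MCMBP carry the MCM name without being ring subunits: MCM10 helps to activate CMG, and MCMBP binds MCM subunits outside the loaded ring. Genes of the core helicase are known as E2F targets and are widely used as markers of cycling cells.

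Levels are given as deposited, in FPKM (fragments mapped to a gene, scaled by transcript length and library size). ATOH8 itself stood at 0.786 and 182 FPKM (here and below, the vector value comes first). Mitochondrially encoded transcripts took 14.4% and 24.2% of the FPKM summed over shared symbols, and genes with a mean of at least 5 FPKM had a log2 fold of -0.36 at the median. Unless stated otherwise, a log2 fold is therefore log2(ATOH8 + 1) minus log2(vector + 1), taken relative to that median gene. Of 10 markers of A549 and lung epithelium, 9 had a mean of at least 1 FPKM, and KRT19 was listed at 0.219 and 0.070 FPKM. Alveolar type 2 markers summed to 1.03 and 1.20 FPKM and fibroblast markers to 0.756 and 0.763 FPKM. The endothelial markers were listed in the ATOH8 file alone, at a sum of 0.082 FPKM. Among immune markers, CD14 stood at 1.12 and 9.14 FPKM, LYZ at 0.056 and 0.098 FPKM and PTPRC at 0.011 FPKM in the ATOH8 file alone, while CD3E was listed in neither.

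All 10 MCM genes were lower in the ATOH8 library in FPKM as deposited, where 64.7% of 12342 genes with a mean of at least 1 FPKM were lower. Against the median gene, 8 members were lower by 2-fold or more and 0 were higher by as much, next to 9.46% and 12.8% of all tested genes. The 8 were the 6 core subunits, MCM8 and MCM10. The line of 2-fold fell between MCM7, at a log2 fold of -1.12, and MCMBP, at -0.94, and MCM9 stood at -0.52. In the authors' deposited table all 10 were marked down and 0 up, where 14.7% of tested genes were marked down. That table rests on the same 2 libraries and is not independent evidence. With 1 library per group, the q-values quoted from it below measure no spread between cultures.

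**Figure D1:**
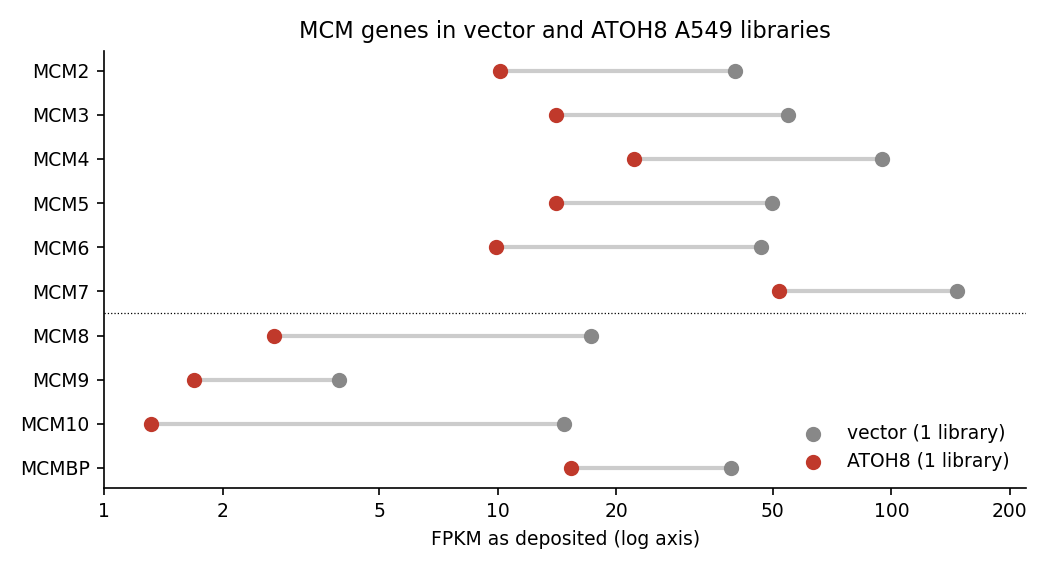
FPKM as deposited of the 10 MCM genes in the vector library (grey) and the ATOH8 library (red), 1 library each, on a log axis. The dotted line separates MCM2 to MCM7 from the other members, and every red point lies to the left of its grey point.

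The core subunits are described first, from the most to the least abundant in the vector library. MCM7 (ENSG00000166508, chromosome 7, 100092728 to 100101940, minus strand, GENCODE 29 on GRCh38) was at 146.5 and 51.8 FPKM, 2.83-fold lower. It was the most abundant MCM transcript in both libraries and kept the largest part of its level among the core subunits, 35.4%. The authors' deposited table gave it a log2 ratio of -1.50 and a q-value of 4.90e-05.

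MCM4 (ENSG00000104738, chromosome 8, 47960185 to 47978160, plus strand) was at 94.9 and 22.2 FPKM, a log2 fold of -1.69. Its product sits in the ring beside those of MCM6 and MCM7, and the 3 together can unwind DNA on their own in the test tube. MCM6 (ENSG00000076003, chromosome 2, 135839626 to 135876426, minus strand) was at 46.5 and 9.87 FPKM, a log2 fold of -1.77. It was the lowest in fold of the core subunits and 4.71-fold lower without a pseudocount. Within the trio, therefore, MCM6 kept 21.2% and MCM4 23.3% of the vector level, and MCM7 more than either.

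MCM3 (ENSG00000112118, chromosome 6, 52264009 to 52284881, minus strand) was at 54.5 and 14.1 FPKM, a log2 fold of -1.52. MCM5 (ENSG00000100297, chromosome 22, 35400063 to 35425430, plus strand) was at 49.7 and 14.0 FPKM, a log2 fold of -1.40. The products of MCM5 and MCM2 flank the gate through which the ring is opened around DNA. MCM2 (ENSG00000073111, chromosome 3, 127598223 to 127622436, plus strand) was at 40.1 and 10.1 FPKM, a log2 fold of -1.53. MCM2 and MCM3 thus had nearly the same fold, and MCM5 kept somewhat more of its level. The authors' deposited table gave q-values of 0.00558 for MCM2, 0.000338 for MCM3 and 0.000139 for MCM5.

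The other members spread more widely. MCM10 (ENSG00000065328, chromosome 10, 13161554 to 13211104, plus strand) was at 14.7 and 1.32 FPKM, 11.2-fold lower, with a log2 fold of -2.40. It had the lowest fold of the family, rank 13 from the bottom among the 12342 tested genes, and a q-value of 1.55e-07 in the authors' deposited table. MCM8 (ENSG00000125885, chromosome 20, 5950652 to 5998977, plus strand) was at 17.3 and 2.70 FPKM, 6.40-fold lower, with a log2 fold of -1.95 and rank 77. On this scale, these genes were the only members below the core range of -1.77 to -1.12. With a pseudocount of 5, MCM10 (-1.36) and MCM8 (-1.25) were not below the core, where MCM4 was at -1.60 and MCM6 at -1.51. After the GC correction described below, MCM10 (-2.16) was still below the core range, and MCM8 (-1.58) was inside it.

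MCM9 (ENSG00000111877, chromosome 6, 118813442 to 118935162, minus strand), the partner of MCM8, was at 3.95 and 1.69 FPKM, 2.34-fold lower without a pseudocount or centring. It was the least abundant member in the vector library and had the smallest fold. The level of MCM8 relative to MCM9 was 4.37 in the vector and 1.60 in the ATOH8 library, so the partners lay closer to each other in the second. MCMBP (ENSG00000197771, chromosome 10, 119829404 to 119892556, minus strand) was at 39.1 and 15.4 FPKM, 2.55-fold lower on the same terms. Among the 10 members ordered by level it moved from place 7 in the vector to place 3 in the ATOH8 library, above 4 of the core subunits. The authors' deposited table gave q-values of 0.0244 for MCM9, 0.00167 for MCMBP and 1.68e-08 for MCM8.

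Set side by side, MCM2 to MCM7 had a mean log2 fold of -1.50 and a range of 0.64, and the other 4 members a mean of -1.45 and a range of 1.88. The difference of the means, core minus others, was -0.05, and it turned to 0.21 with a pseudocount of 0.1. Summed FPKM of the core was 432 in the vector and 122 in the ATOH8 library, 28.2% of the vector level. The sum over the other 4 was 75.1 and 21.1 FPKM, 28.1% of the vector level. The sums therefore matched, while single members outside the core lay on both sides of the core. In bulk RNA, fewer cycling cells and less MCM RNA per cycling cell cannot be told apart.

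**Figure D2:**
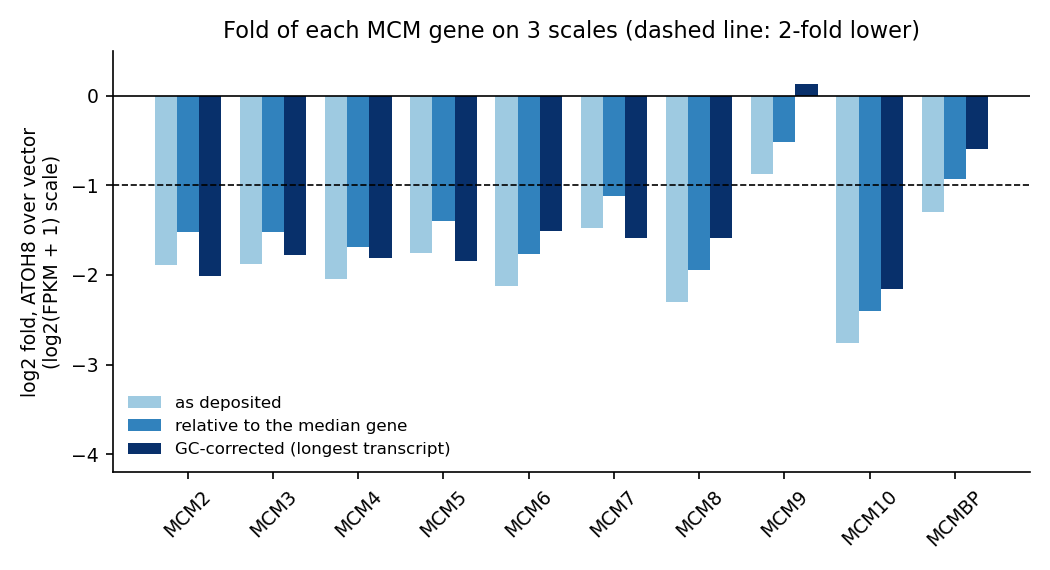
Log2 fold of each MCM gene, ATOH8 over vector, on the log2(FPKM + 1) scale: as deposited, relative to the median gene, and after a correction for the GC content of the longest transcript; the dashed line marks 2-fold lower. The core subunits, MCM8 and MCM10 pass the line on all 3 scales, MCMBP passes it as deposited only, and MCM9 passes it on none and is at 0.13 after the correction. All 3 scales hold the pseudocount of 1. Without it and without centring, MCM9 is 2.34-fold lower.

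The ring holds each core subunit once, and FPKM is scaled by transcript length, so the share of each subunit in the summed FPKM of the core was compared. These shares do not depend on how the libraries were scaled, but they carry no GC correction. MCM7 made up 33.9% of the core FPKM in the vector and 42.4% in the ATOH8 library, where equal shares would be 16.7%. MCM4 went from 22.0% to 18.2% and MCM6 from 10.8% to 8.09%. MCM5 was at 11.5% in both, and MCM3 (12.6% and 11.5%) and MCM2 (9.28% and 8.30%) were nearly level. The order of the core subunits was the same in both libraries except that MCM6 and MCM2 changed places at the bottom.

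The most abundant core transcript exceeded the least abundant 3.65-fold in the vector and 5.25-fold in the ATOH8 library. Without MCM7 the ratio was 2.37 and 2.24, so the wider spread lay in MCM7. The file's loci for MCM7 and MCM2 also spanned other coding genes, named below. The part of shared reads in the subunit shares was not tested. After the GC correction described below, MCM6 had the highest core fold (-1.51) and MCM7 the next (-1.59), so the smaller share of MCM6 in the ATOH8 library did not hold on that scale. Measured against the core median (52.1 and 14.1 FPKM), MCM10 stood at 0.282 of it in the vector and 0.094 in the ATOH8 library. MCMBP stood at 0.751 and 1.09 of the core median. Summed core FPKM per FPKM of PCNA, the sliding clamp gene, was 1.44 and 1.12. MCM10 thus stood further below the core median in the ATOH8 library, and MCMBP stood above it there, with MCM7 and MCM4 still higher.

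**Figure D3:**
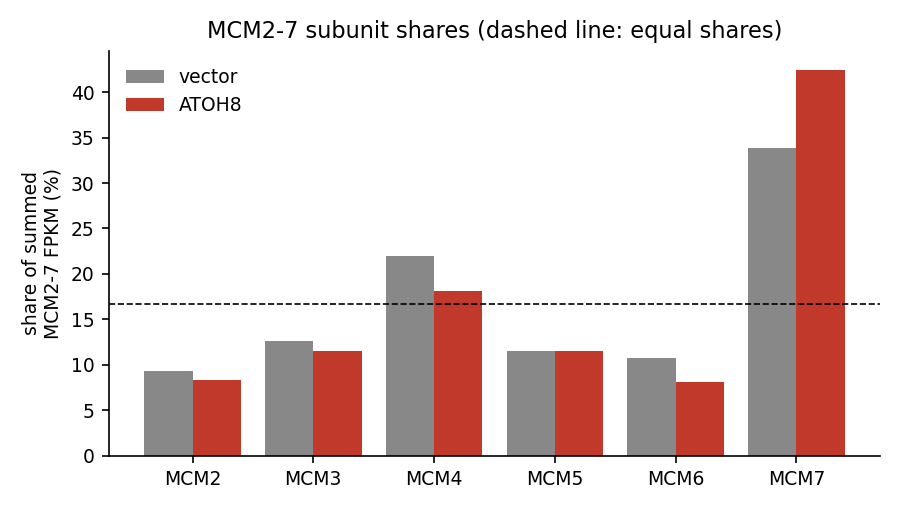
Share of each subunit gene in the summed FPKM of MCM2 to MCM7 (%), in the vector (grey) and ATOH8 (red) library, 1 library each; the dashed line marks equal shares of 16.7%. MCM7 takes 33.9% and 42.4%, and MCM4 and MCM6 take smaller shares in the ATOH8 library.

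Folds in these libraries went with base composition. Among tested genes, the median log2 fold was -0.70 in the decile with the lowest GC content of the longest transcript and 0.63 in the highest decile. The members were spread along this axis, from 37.6% GC for MCM9 to 58.1% for MCM2, with a median of 54.3% for the core and 42.1% for the other 4. MCM2, MCM5 and MCM7 fell in the eighth decile, where 24 of 1231 genes (1.95%) were at least 2-fold lower, and these 3 were among the 24. MCM3 and MCM4 fell in the decile where 3.74% of genes were at least 2-fold lower. MCM6, MCM8 and MCMBP shared the decile where 16.2% were, and MCM9 was in the lowest decile, where 32.4% were.

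After a smooth trend on GC content was subtracted, the 2-fold line was passed by 6 of 6 core subunits and 2 of the other 4, against 5.94% of all tested genes. The median of the core went from -1.52 to -1.80, with MCM2 at -2.01, MCM5 at -1.85, MCM4 at -1.81, MCM3 at -1.78, MCM7 at -1.59 and MCM6 at -1.51. All 6 were among the 146 lowest of 12313 genes, and MCM2 moved from rank 294 to rank 22. MCM10 was at -2.16 and MCM8 at -1.58. MCMBP was at -0.60 and MCM9 at 0.13, above the trend. On this scale the mean was -1.76 for the core and -1.05 for the other 4 members, a difference of -0.71.

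The longest transcript is not always the coding one: that of MCM9 has 3 exons, while its transcript with the longest coding sequence has 13 exons and 45.1% GC. With GC content taken from the transcript with the longest coding sequence, a choice made after seeing the data, MCM9 was at -0.36 and MCM10 at -2.38, and the core median was -1.78. The count past the 2-fold line was again 6 of 6 and 2 of 4, against 5.80% of tested genes. The sign for MCM9 thus depended on the transcript model, and the part of base composition in its fold was not tested.

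**Figure D4:**
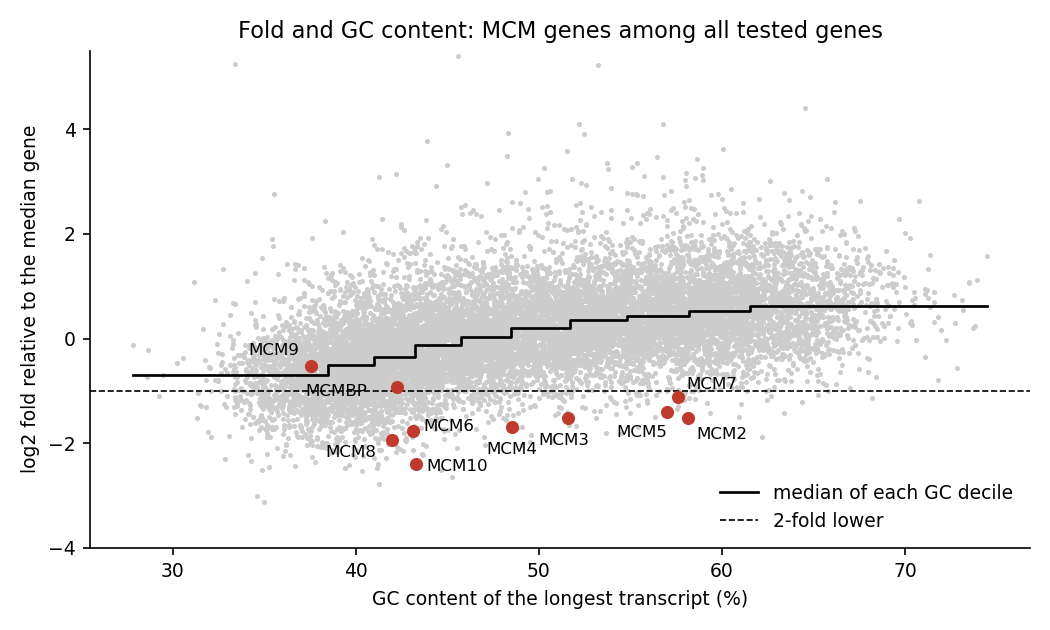
Log2 fold relative to the median gene against GC content of the longest transcript (%), for all tested genes (grey; 1 gene, ATOH8, lies beyond the axis) and the 10 MCM genes (red); the stepped line is the median of each GC decile and the dashed line marks 2-fold lower. MCM2, MCM5 and MCM7 lie at high GC content, where few genes are that low, and MCM9 and MCMBP lie nearest to the stepped line.

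Where the genes overlap others, reads could have been split between them, and the strand setting of the counting is not given in the sources used here. The file's locus for MCM2 also spanned TPRA1, that for MCM7 spanned AP4M1, CNPY4, MBLAC1 and TAF6, and that for MCM9 spanned ASF1A and FAM184A. The locus of MCM8 spanned no other coding gene and 5 noncoding ones, among them the antisense gene MCM8-AS1, which neither file listed. For MCM3, MCM4, MCM5, MCM6, MCM10 and MCMBP it spanned no other annotated gene. The 6 members with a locus of their own thus ran from -2.40 (MCM10) to -0.94 (MCMBP) in log2 fold.

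Of the 10 members, 5 start within 1000 bases of an oppositely directed coding gene by GENCODE gene ends, an arrangement in which a promoter region is often shared. The share of all genes placed like this was not counted, so the count is not read as a trait of the family. MCM4 lies 2 bases from the start of PRKDC, the catalytic subunit gene of DNA-dependent protein kinase, which was at 62.5 and 24.1 FPKM, a log2 fold of -0.98 beside -1.69 for MCM4. MCM8 lies 94 bases from TRMT6, a tRNA methyltransferase subunit gene, at 19.2 and 4.84 FPKM (-1.43 beside -1.95). MCMBP lies 155 bases from SEC23IP, at 15.3 and 6.69 FPKM (-0.73 beside -0.94). That distance is from the GENCODE gene end at 119892556, while the RefSeq windows of MCMBP searched below lie between 119872794 and 119873831. By those RefSeq starts, MCMBP and SEC23IP do not start within 1000 bases of each other. In these 3 pairs both genes were below the median gene.

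In the other 2 pairs the partners stood on opposite sides of it. MCM2 starts 44 bases from TPRA1, which was at 11.9 and 24.7 FPKM, a log2 fold of 1.36 beside -1.53 for MCM2. MCM7 starts 391 bases from AP4M1, an adaptor complex gene, at 5.21 and 7.36 FPKM (0.79 beside -1.12). Both partners also lie within the file's locus of their MCM gene, and the part of shared reads in these values was not tested.

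Over all annotated coding neighbours of the 10 members, 17 of 23 had a mean of at least 1 FPKM. Of these, 3 were at least 2-fold lower (UBE2V2 beside MCM4, TRMT6, and ASF1A, which lies inside MCM9) and 3 at least 2-fold higher (RASD2 beside MCM5, TPRA1, and PAQR8 beside MCM3), against 9.46% lower and 12.8% higher over all tested genes. Their median log2 fold was -0.35, against 0.06 over all tested genes. HMOX1 beside MCM5 was at 0.20, DARS beside MCM6 at -0.75, COPS6 and TAF6 beside MCM7 at -0.35 and 0.27, and PODXL2 beside MCM2 at 0.42. CRLS1 beside MCM8 was at -0.45, INPP5F beside MCMBP at -0.43 and OPTN beside MCM10 at 0.99. CEP85L and FAM184A, beside MCM9, had means under 1 FPKM, and PRR20G, IL17F, LCT and UCMA had no value in both libraries. Most of the tested neighbours were thus not past 2-fold in either direction.

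Promoter windows were read from RefSeq (GRCh38.p14), from 250 bases before to 50 after each start, for the 8 members that matched by symbol. MCM4 and MCM5 had no entry. E2F motifs were searched as TTTCCCGC, TTTGGCGC, TTTCGCGC and TTTGCCGC on both strands. At least 1 match was found for 6 of the 8 genes, all 4 core genes with an entry among them, while 3.99% of all 27305 gene symbols in the table had a window with one. That share covers genes of any level. Among the other tested genes with a window the share was higher, with 618 that had a match and 8379 that had none. By window, the members had a match in 6 of 11, against 3.31% of all 35116 windows. The stretches with a match are shown whatever the fold of the gene. Capitals mark E2F matches, and positions count from the RefSeq start, whose first transcribed base is 1.

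MCM2, chr3:127598402-127598431, plus strand, from -9 to 21: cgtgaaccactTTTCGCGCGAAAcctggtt
MCM3, chr6:52284898-52284927, minus strand, from -185 to -156: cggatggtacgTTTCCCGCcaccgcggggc
MCM3, chr6:52284728-52284757, minus strand, from -15 to 15: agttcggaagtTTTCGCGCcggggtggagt
MCM7, chr7:100101566-100101595, minus strand, from -198 to -169: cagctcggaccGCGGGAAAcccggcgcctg
MCM7, chr7:100101388-100101417, minus strand, from -20 to 10: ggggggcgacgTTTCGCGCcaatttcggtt
MCM8, chr20:5950667-5950696, plus strand, from 16 to 45: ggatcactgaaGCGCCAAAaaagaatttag
MCMBP, chr10:119872834-119872863, minus strand, from -20 to 10: ggcggcggctaTTTCCCGCcattgtgcgaa

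In MCM2 the match reads TTTCGCGC on both strands, in overlapping copies, just after the start. MCM3 and MCM7 each had 1 match at the start and another further upstream, and in MCM7 the match at the start overlaps a CCAAT box by 1 base. In MCM8 the match lies after the start and on the other strand, and in MCMBP it belongs to the second of 2 RefSeq start sites. MCM9 and MCM10 held none of these letters in their windows.

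MCM6 held 4 matches, in 2 copies of the same element, where TTTGGCGC on the printed strand overlaps TTTCGCGC on the other. The stretch is shown with CCAAT boxes (the NF-Y motif, on either strand) in capitals as well, since the elements lie side by side; it ends 41 bases before the start.

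MCM6, chr2:135876484-135876603, minus strand, from -160 to -41: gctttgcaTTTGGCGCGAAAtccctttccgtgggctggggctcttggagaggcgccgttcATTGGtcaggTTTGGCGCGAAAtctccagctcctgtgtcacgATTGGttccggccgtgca

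MCM6, with the most E2F matches, had the lowest fold of the core before the GC correction and the highest after it. With the pseudocount of 1, MCM10 had the lowest fold of all members and no match, so the number of matches did not order the members. CCAAT boxes were found for 6 of the 8 genes, MCM10 and MCM9 among them, and for 39.7% of all symbols, here and below again whatever their level. TTTGAA, the cell cycle homology region motif, was found for 0 of the 8 and for 18.2% of all symbols. CANNTG, the E-box that basic helix-loop-helix factors bind, was found for 5 of the 8 and for 73.1% of all symbols. It read CACGTG in MCM2, MCM7 and MCM8, CAGATG and CATTTG in MCM6, CAGCTG in MCM10 and CATGTG in the window of another MCM7 start. A match describes letters in a window and not binding of a factor.

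Across the other tested genes with a RefSeq window, 15.2% of the 618 with an E2F match were at least 2-fold lower, against 9.69% of the 8379 without one. Their median log2 folds were -0.13 and 0.04. After the GC correction the shares were 11.2% and 5.72%. For TTTGAA, found in no MCM window, they were 14.8% with and 9.34% without a match, and 8.23% and 5.76% after the GC correction. For the E-box the uncorrected shares were 9.92% with and 10.4% without a match. Most genes with an E2F match were therefore not as low as the core MCM genes.

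MCM7 also hosts 3 microRNA hairpins on its own strand, MIR106B, MIR93 and MIR25, which are cut from its primary transcript. The FPKM files listed none of the hairpins, and mature microRNAs were not measured here. Of the mature forms in RefSeq (GRCh38.p14), 3 are shown because 2 of them share a seed. The form from the other arm of each hairpin is left out. Capitals mark bases 2 to 8.

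hsa-miR-106b-5p, chr7:100094043-100094063: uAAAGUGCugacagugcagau
hsa-miR-93-5p, chr7:100093815-100093837: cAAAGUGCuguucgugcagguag
hsa-miR-25-3p, chr7:100093571-100093592: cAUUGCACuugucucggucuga

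The host transcript was at 35.4% of its vector level in the ATOH8 library, as given above. What reaches the mature microRNAs from that cannot be read from these files.

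Genes that work with the MCM helicase were read from lists by role. The counts below stand beside 9.46% of all tested genes at least 2-fold lower, or 5.94% after the GC correction. Of 9 genes of origin recognition and helicase loading, 6 were at least 2-fold lower and 0 were higher by that much. Their median log2 fold was -1.46, beside -1.52 for the core, and after the GC correction -1.02 beside -1.80. CDC6 (26.1 and 3.94 FPKM), which loads the ring together with CDT1, was at -2.10, and the origin recognition genes ORC3, ORC4 and ORC6 at -1.71, -1.63 and -1.54. CDT1 (15.2 and 12.4 FPKM) was at 0.08 and LRWD1 at -0.10, the highest values. After the GC correction CDT1, at 64.9% GC, was at -0.56 and LRWD1 at -0.69, while CDC6 was at -2.03. The place of CDT1 at the top of the list did not hold on that scale, where ORC2 was highest at -0.20 (named after its value was seen).

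Of 12 licensing regulators and kinases, 8 were at least 2-fold lower (median -1.31). With the GC correction 5 were (median -0.95), and with a pseudocount of 5 the count was 4 (median -0.86). GMNN, which encodes the CDT1 inhibitor geminin, was at 38.4 and 8.41 FPKM (-1.71), DTL at -1.70, CDK1 at -1.67 and FBXO5 at -1.45. CCNE1 and CCNE2, at -0.14 and -0.74, were the highest. CDC7 and DBF4, the kinase that phosphorylates the MCM ring and its activator, were at -1.44 and -1.36 and were picked out after their values were seen. The gene of the inhibitor was thus low like those of the loaded subunits before the GC correction. After it GMNN was at -1.49, just above the core range of -2.01 to -1.51.

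Of 11 CMG partners and firing factors, 6 were at least 2-fold lower (median -1.19), and with a pseudocount of 5 the count was 1 (median -0.70). WDHD1 (8.89 and 0.952 FPKM) was at -1.98, TOPBP1 at -1.90, MTBP at -1.54 and the GINS subunit gene GINS2 at -1.38, while DONSON and TICRR were highest at -0.54 and -0.76. CDC45, the other CMG partner, was at -1.19 (picked out after its value was seen), above each core subunit except MCM7. Of 16 fork proteins, 7 were at least 2-fold lower (median -0.95; 11 after the GC correction, median -1.07), with POLE2 at -2.22, TIPIN at -2.12, CLSPN at -1.74 and PRIM1 at -1.52 lowest and POLD1 and RPA1 at -0.45 and -0.53 highest. As deposited, 10 of the 11 and 14 of the 16 were at least 2-fold lower, against 19.0% of all tested genes, with 6.24% at least 2-fold higher. On that scale, which keeps the pseudocount of 1, 6 of 6 core subunits and 3 of the other 4 members were.

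Of 9 genes that take the helicase off DNA, 3 were at least 2-fold lower (median -0.19), and 1 was with a pseudocount of 5 or with GC content from the coding transcript. The 3 were LRR1, whose product marks the MCM7 protein for removal, at -1.59, CUL2 at -1.44 and UFD1L at -1.07, followed by TRAIP at -0.49. UBXN7 and NPLOC4 were highest at 0.21 and 0.11. Of 8 MCM8 and MCM9 partners in recombination, 5 were at least 2-fold lower (median -1.08; 3 after the GC correction, median -0.74), with RAD51C at -2.16, NBN at -1.42, RAD50 at -1.14 and MRE11 at -1.12 lowest. C17orf53, which encodes the loader of MCM8 and MCM9, was at 2.94 and 1.57 FPKM (-0.26), and RPA1, which is also on the fork list, at -0.53. The loader's gene thus sat nearer to MCM9 (-0.52) than to MCM8 (-1.95) before the GC correction. After it, the loader's gene was at -0.71, MCM9 at 0.13 and MCM8 at -1.58, so the loader's gene was not clearly nearer to either.

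Of 7 tested helicase genes outside the family, 2 were at least 2-fold lower (median -0.53), BLM at -1.92 and RECQL at -1.82, with WRN at -0.81 and RUVBL1 at -0.53 next. RECQL5 was highest at 0.55, and RUVBL2, whose product also forms a ring, was at 0.00. After the GC correction 2 of the 7 were again at least 2-fold lower (median -0.78), and RUVBL2 was at -0.54. The mitochondrial helicase gene TWNK was at -0.44 and was picked out after its value was seen. Of the genes named after MCM proteins but not members here, those tested were near the median gene. MCM3AP, an RNA export factor gene, was at 19.7 and 14.3 FPKM (-0.08) and MCM3AP-AS1 at 0.01. MCMDC2, a meiotic relative, was listed at 0.152 and 0.156 FPKM.

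**Figure D5:**
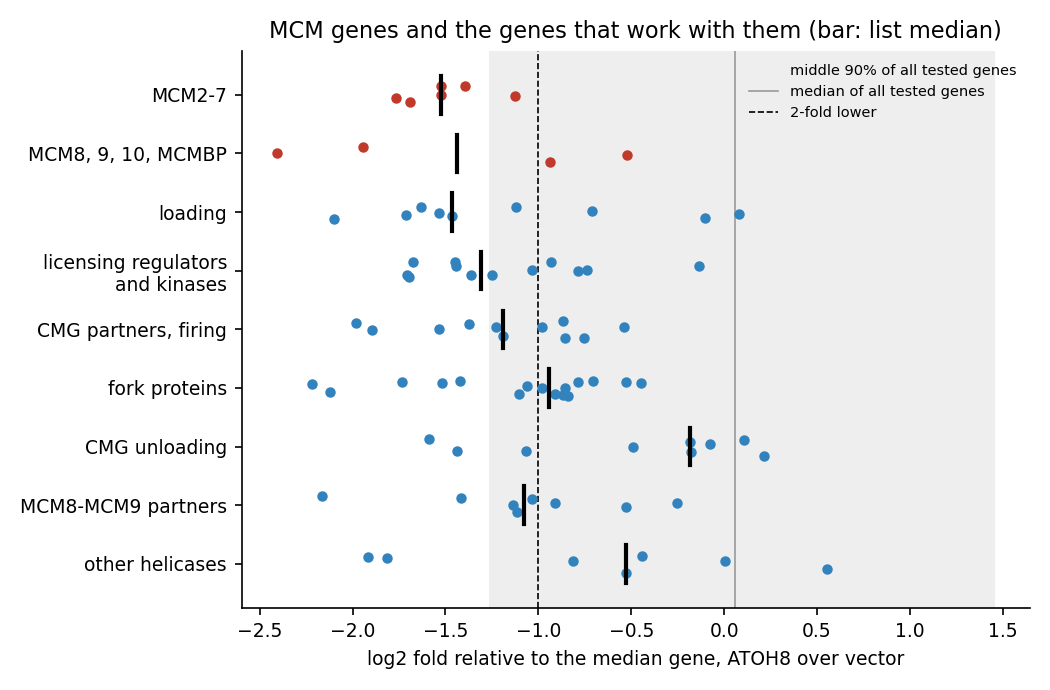
Log2 fold relative to the median gene of each tested gene (points, spread vertically for visibility) in the core and the other members of the MCM family (red) and in lists of genes that work with them (blue); the black bar is the list median, the grey band the middle 90% of all tested genes and the dashed line 2-fold lower. The core subunits lie between -1.77 and -1.12, and the median of the CMG unloading genes is at -0.19.

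The 5 other genes nearest to the mean of the core, by distance on the plane of log2(FPKM + 1) in the 2 libraries, were LBR, NSA2, HDAC2, RPE and DDX21, at distances of 0.03 to 0.13. LBR, the lamin B receptor gene, was at 63.1 and 16.8 FPKM, and HDAC2, a histone deacetylase gene, at 60.8 and 16.5 FPKM. With 2 libraries this measures only level and fold. After the GC correction these 5 lay between -0.96 and -0.66, and MCM2 to MCM7 between -2.01 and -1.51. The closest genes on the deposited scale thus parted from the core once base composition was subtracted. They were picked on the uncorrected scale, where genes of low GC content are more often low, so such a shift was partly built into the choice. Many other genes also lay nearer to the core mean than the core subunits themselves did, from 46 for MCM3 to 3066 for MCM7.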

How the data were processed

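RNA sequencing libraries of A549 cells, 1 with vector and 1 with ATOH8, were grouped by their treatment label. The submitters' processing notes name CASAVA, HISAT2, Cufflinks 2.2.1 and hg38, without roles; annotation, strand setting, filters and depth were not given in the sources used here, and no counting error could be attached. The authors deposited FPKM per gene, per the file headers, and a table of their comparison with a log2 ratio, p-value and q-value, also deposited by the authors. Its 2 per-library columns match no label and were not used. Per the file headers the FPKM tables hold identifiers, symbols and loci; neither lists a 0. FPKM is relative to each library's total, so abundant transcripts that differ shift all others.

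The join was on the gene identifier, with rows of 1 symbol added up (18786 symbols in both). Log2 folds used a pseudocount of 1, which understates folds of low genes such as MCM9 and MCM10; the 12342 genes whose mean FPKM reached 1 were tested against a rule of size, 2-fold. Folds were centred on the median of genes with a mean of at least 5 FPKM. GC content came from GENCODE 29 transcripts, matched for 99.8% of tested genes, and its trend was a lowess curve (fraction 0.3; statsmodels 0.14.6). The procedure was tested on simulated data. Where a GC trend was simulated, only the GC-corrected fold was required to recover the known changes, and not the centred one. The members and lists were chosen with earlier results of these data known. Named were all members, short lists whole, the 4 lowest and 2 highest genes of longer lists, the neighbours, and the 5 nearest genes. Alternatives were other pseudocounts, filters, scalings, GC corrections and the highest row of a shared symbol. No protein sequence was used here, and 1 immune marker is not reported here.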

Additional observations from a re-analysis of the deposited data

How the results depend on the processing

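With 1 library per group no library could be left out, and no paired analysis was possible because the groups share no labelled replicate. Over 11 alternatives, 6 of 6 core subunits stayed at least 2-fold lower, and the core median ran from -1.88 to -1.33. Among these, the other filters and the highest row of a shared symbol left the core median at -1.52. They did not touch the core values, so they say nothing on how firm these are. The count for the other 4 members was 2 or 3, and MCM9 was not tested with a mean of at least 5 FPKM. MCM9 turned to 0.13 with the GC correction on the longest transcript. MCMBP passed 2-fold without centring (-1.29), with TPM (-1.25) and without mitochondrial genes (-1.09). The core minus other difference of -0.05 was 0.21 with a pseudocount of 0.1, -0.46 with 5, -0.71 with the GC correction, and -0.53 with the GC content of the coding transcript, an alternative chosen after seeing the data. The share of all tested genes at least 2-fold lower, and higher, was 4.25% and 5.15% with a pseudocount of 5, 19.0% and 6.24% as deposited, 19.6% and 8.43% with TPM, 5.94% and 8.33% with the GC correction, and 5.80% and 8.32% with the coding transcript. It was 15.5% lower without mitochondrial genes and 6.22% lower with no filter. Licensing regulators past 2-fold numbered 4 with a pseudocount of 5 and 5 with either GC correction, CMG partners 1 with a pseudocount of 5, and fork proteins 11 with the GC correction on the longest transcript. MCM8 and MCM9 partners past 2-fold numbered 1 with a pseudocount of 5 and 3 with either GC correction, and CMG unloading genes 1 with a pseudocount of 5 and 1 with the coding transcript. The causes were not tested. Read depth is unknown, so no counting error can be given for the low members MCM9 and MCM10.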
